A study of Mus musculus with 4 samples.

Results

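The 9 genes described here belong to megakaryocytes, to the platelets that these cells release, or to the hormone signal from liver that drives their growth: *Thpo*, *Pf4*, *Ppbp*, *Itga2b*, *Itgb3*, *Gp9*, *Gp1bb*, *Gp5* and *Vwf*. They were taken by name from the array annotation, together with every probe that carries 1 of these names, which gave 13 of the 55681 probes and 9 of the 36161 gene names on the array. All 9 were found, each probe was printed at 1 spot, and no member spot carried an outlier flag or was saturated.

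Megakaryocytes are the large blood-forming cells that shed platelets, the cell fragments that stop bleeding. Around birth the mouse liver is still a blood-forming organ, so whole-liver RNA holds RNA of megakaryocytes and their precursors beside that of hepatocytes. Hepatocytes secrete thrombopoietin (*Thpo*), which acts on megakaryocytes and their precursors. Maturing megakaryocytes pack chemokines and von Willebrand factor into granules, and place on their surface the fibrinogen receptor (an integrin made of the *Itga2b* and *Itgb3* products) and the receptor for von Willebrand factor (the GPIb-IX-V complex, to which *Gp9*, *Gp1bb* and *Gp5* contribute).

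Whole-liver RNA was compared between microsomic mice (M), whose birth weight lay below a low percentile of the colony for their gender, and control littermates of normal birth weight (C), with 4 arrays, 1 each for microsomic females (MF), control females (CF), microsomic males (MM) and control males (CM). According to the labels, all were C57BL/6J at embryonic day 20, and no treatment or altered gene is named, whereas the paper describes newborn C57BL/6 N mice and 3 replicate experiments per group. The labels do not say how many animals gave the RNA of an array. All 4 arrays lay on the same slide, M in one column and C in another, so slide column and M vs C cannot be told apart.

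Levels are log2 processed signals relative to the 75th percentile of the array, so a level of 0 is that percentile and a step of 1 is a doubling. Of the 59305 non-control spots, 56.1% to 65.3% were well above background, the background test of the scanner software. The 75th percentile itself lay between 628 and 925 signal units, lower on both C arrays than on both M arrays. Since each group has 1 array, the spread between animals is unknown and a pair of arrays has no p-value. The error given beside a difference is the spot SD, computed from probes of like brightness printed at 10 spots (SD on a single array 0.21 to 0.42 on the log2 scale), and it covers differences between spots alone. Levels of different probes are not set against each other, since probes bind their targets unequally. In whole-organ RNA, fewer cells of a type and less RNA per cell cannot be told apart.

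*Thpo* gave the largest difference among the member probes, and on only 1 of its 2 probes: the level of A_52_P237232 in MF exceeded that in CF 3.21-fold. Thrombopoietin is the main growth factor of megakaryocytes, and the liver is its principal source. Both probes are assigned by the array annotation to the same transcripts. A_52_P237232 lies at chr16:20725925-20725984 and A_66_P119983 at chr16:20724532-20724591, both on the minus strand of mm9. Their sequences are shown because probes of 1 gene gave unequal differences. The first is shown in full (60 bases) and the second by its first 30 bases, 5′ to 3′, with no part marked.
Thpo A_52_P237232: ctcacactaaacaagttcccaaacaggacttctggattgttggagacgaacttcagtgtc
Thpo A_66_P119983: tgtgtggccactccaaactttattggaacc

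On A_52_P237232 the log2 level was -2.19 in MF, -3.88 in CF, -2.76 in MM and -2.41 in CM. CF was the low array, apart from the other 3, among which MM minus MF was -0.57 on the log2 scale. The MF minus CF log2 difference was 1.68 ± 0.52 (spot SD) and the MM minus CM difference -0.36 ± 0.54, the first larger than the spot SD and the second not. The second probe, A_66_P119983, had log2 levels of -3.96 in MF, -4.00 in CF and -3.31 in MM. In CM it was not well above background, with a measured log2 value of -3.85. Its MF minus CF log2 difference was 0.04 ± 0.52. As measured, its MM level was 1.46-fold that CM value. Both *Thpo* probes were thus dim, and they gave different orders of the 4 arrays. Among all probes within 0.5 of A_52_P237232 in mean log2 level, 40.4% of 3994 differed by more than 1.5-fold between MF and CF. With normexp background correction and quantile normalization, the MF minus CF difference of A_52_P237232 was 0.62. With the trend over array position removed, its MM minus CM difference was 0.81.

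The granule chemokines *Pf4* and *Ppbp* were each higher in M in 1 gender. *Pf4*, platelet factor 4, is a chemokine stored in the alpha granules of platelets, and *Ppbp*, pro-platelet basic protein, is the precursor of the granule chemokine that attracts neutrophils. The genes are neighbours: the *Pf4* probe A_51_P441426 lies at chr5:91202275-91202334 and the *Ppbp* probe A_51_P428372 at chr5:91198970-91199029, both on the plus strand of mm9, with 3245 bases between them. The first 30 bases of each probe, 5′ to 3′ and with no part marked, show that the signals of these neighbouring chemokine genes were read from different sequences.
Pf4 A_51_P441426: ctggagagttaggtatcagctgcctaaatg
Ppbp A_51_P428372: ctggtcatgaccatgtttttccaatttctt

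*Pf4* had log2 levels of 6.72 in MF, 6.44 in CF, 6.31 in MM and 5.48 in CM. CM was the low array, and MF, CF and MM followed each other in steps smaller than the spot SD. The MM minus CM log2 difference was 0.83 ± 0.35 (spot SD), a level 1.78-fold higher in MM, and the MF minus CF difference was 0.28 ± 0.37. Of the 566 probes within 0.5 of *Pf4* in mean log2 level, 23.0% differed by more than 1.5-fold in MM vs CM. *Ppbp* had log2 levels of 4.69 in MF, 4.06 in CF, 5.09 in MM and 5.13 in CM. Here CF was the low array and both male arrays lay together at the top. The MF minus CF log2 difference of *Ppbp* was 0.63 ± 0.37, a level 1.55-fold higher in MF, and the MM minus CM difference was -0.04 ± 0.35. Of the 884 probes within 0.5 of *Ppbp* in mean log2 level, 45.2% differed by more than 1.5-fold in MF vs CF (median 0.20). Between the control arrays the neighbours went opposite ways: CM minus CF was -0.96 on the log2 scale for *Pf4* and 1.07 for *Ppbp*. The *Pf4* difference in males was 0.06 with the position trend removed, and in females it was -0.45 with quantile normalization and -0.51 with normexp correction as well. The *Ppbp* difference in females was 0.29 with quantile normalization.

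The subunits of the fibrinogen receptor differed little between M and C on their brighter probes. *Itga2b* encodes the alpha chain (CD41), the usual surface marker of the megakaryocyte lineage, and *Itgb3* the beta chain, which also pairs with the alpha V chain on other cells. The *Itga2b* probe A_52_P459564 spans chr11:102319453-102319661 on the minus strand of mm9, 209 bases of genome for a probe of 60, so its target crosses a splice junction. Its sequence is shown for that reason, 5′ to 3′ with no part marked.
Itga2b A_52_P459564: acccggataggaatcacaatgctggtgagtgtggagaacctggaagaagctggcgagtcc

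*Itga2b* had log2 levels of 1.38 in MF, 1.37 in CF, 1.47 in MM and 1.05 in CM. MF and CF differed by 0.01 ± 0.37 on the log2 scale, and the MM minus CM difference of 0.42 ± 0.35 was a level 1.34-fold higher in MM. *Itgb3* was read by a pair of probes assigned to the same transcript, A_52_P553890 at chr11:104531672-104531731 and A_66_P126293 at chr11:104528625-104528684, both on the plus strand of mm9. The first 30 bases of each are shown because these probes went opposite ways in females (5′ to 3′, no part marked).
Itgb3 A_52_P553890: ccacagcaacatcagagtctttgtccattt
Itgb3 A_66_P126293: acttatgtgtgtgacgagtgtggggaaatg

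A_52_P553890 gave *Itgb3* log2 levels of 3.20 in MF, 2.76 in CF, 3.17 in MM and 3.05 in CM, with CF lowest. Its MF minus CF log2 difference was 0.44 ± 0.37 and its MM minus CM difference 0.12 ± 0.35, neither over 1.5-fold. A_66_P126293 gave log2 levels of -2.56 in MF, -1.74 in CF, -2.70 in MM and -3.08 in CM. On this dim probe CF was the highest array: the MF minus CF log2 difference was -0.81 ± 0.47, a level 1.76-fold lower in MF, and the MM minus CM difference was 0.38 ± 0.54. The female difference of this probe was -0.35 with normexp correction and -0.41 with the deposited values unscaled, both under 1.5-fold. With the position trend removed, the MM minus CM differences were 1.07 for *Itga2b*, 0.91 for A_52_P553890 and 1.11 for A_66_P126293.

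Of the 3 members that encode subunits of the von Willebrand factor receptor, *Gp5* was higher in MF, 1.72-fold over CF, while *Gp9* and *Gp1bb* stayed within 1.5-fold in both genders. GPIX (*Gp9*) and GPIb beta (*Gp1bb*) are needed for the complex to reach the platelet surface, and GPV (*Gp5*) is a substrate of thrombin within it. The *Gp5* probe A_51_P439996 (chr16:30308347-30308406, minus strand of mm9) had log2 levels of 0.85 in MF, 0.07 in CF, 0.14 in MM and 0.47 in CM. MF was the high array. The MF minus CF log2 difference was 0.79 ± 0.41 (spot SD) and the MM minus CM difference -0.33 ± 0.44, of opposite sign. With normexp correction the female difference was 0.58, just under 1.5-fold.

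*Gp9*, read by A_51_P153995 at chr6:87729650-87729709 on the plus strand of mm9, had log2 levels of 2.17 in MF, 2.29 in CF, 2.53 in MM and 2.26 in CM. The 4 levels spanned 0.36, the narrowest range among the single-probe members, and the differences were -0.12 ± 0.37 in females and 0.28 ± 0.35 in males. *Gp1bb* has 3 probes on the minus strand of chromosome 16 (mm9). A_51_P151576 (chr16:18621107-18621166), which the annotation assigns to both listed transcripts, gave log2 levels of 1.14 in MF, 0.99 in CF, 0.80 in MM and 1.23 in CM. It is shown in full because 80% of its bases are G or C, far more than in the other member probes, which hold 38.3% to 55%.
Gp1bb A_51_P151576: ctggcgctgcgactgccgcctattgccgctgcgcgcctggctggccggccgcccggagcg

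The differences of this *Gp1bb* probe were 0.16 ± 0.38 in females and -0.43 ± 0.37 in males on the log2 scale. With a trend over probe GC content removed they were -0.04 and 0.29, and with the position trend removed -0.88 and 0.11, so that the direction turned in both genders. The other *Gp1bb* probes are each assigned to a different transcript. A_55_P2039878 (chr16:18621717-18621776) had log2 levels of -2.74 in MF, -2.96 in CF, -2.58 in MM and -2.65 in CM, with differences under the spot SD in both genders. A_55_P2039876 (chr16:18621535-18621594) was not well above background in CF and had log2 levels of -4.48 in MF, -3.67 in MM and -3.49 in CM, so no fold is given in females. In the RefSeq gene table of GRCm38.p6, *Gp1bb* overlaps *Septin5* and *Thpo* overlaps *Chrd*.

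*Vwf*, von Willebrand factor, the adhesive protein that the GPIb-IX-V complex binds, did not differ by 1.5-fold in either gender. It is made in endothelial cells as well as in megakaryocytes. The probe A_51_P103397 (chr6:125636551-125636610, plus strand of mm9) had log2 levels of 2.58 in MF, 2.70 in CF, 2.43 in MM and 2.10 in CM. Both female arrays lay above both male arrays, and the differences were -0.12 ± 0.37 in females and 0.33 ± 0.35 in males, within the spot SD. The male difference was -0.67 with normexp correction and 0.89 with the deposited values unscaled.

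**Figure D1:**
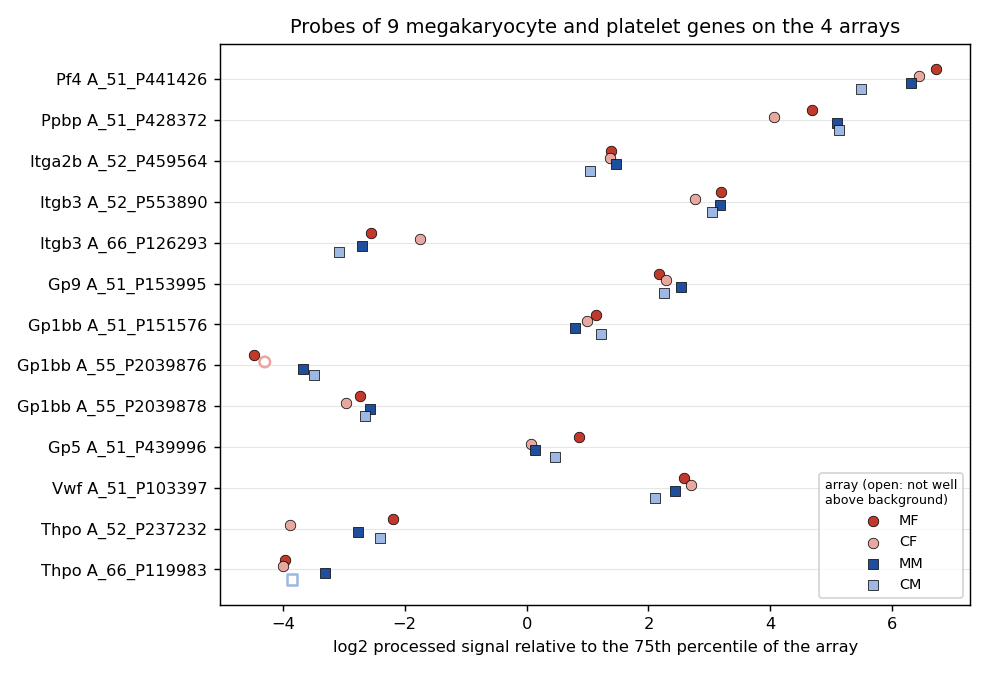
Log2 processed signal relative to the 75th percentile of the array (x axis) for the 13 probes of the 9 genes (y axis), with circles for MF and CF, squares for MM and CM, and open symbols where a probe was not well above background. Each symbol is 1 array without replicate, levels compare within a row alone, and Thpo A_52_P237232 shows CF at -3.88 apart from the other 3 arrays.

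Counted over the 13 probes, the members passed 1.5-fold between M and C no more often than the probes of the array as a whole. In MF vs CF, 3 member probes (*Ppbp*, *Gp5* and *Thpo* A_52_P237232) passed 1.5-fold upward in MF and 1 (*Itgb3* A_66_P126293) passed it downward. Of all 34975 probes compared, 19.1% were higher and 22.3% lower by that measure. In MM vs CM, 1 member probe (*Pf4*) passed 1.5-fold upward in MM and 0 downward, against 17.9% higher and 23.3% lower of all 36587 probes. By a 2-fold threshold 1 member probe (*Thpo* A_52_P237232) passed in females and 0 in males, against 19.8% and 23% of all probes. In both genders the share of member probes past the threshold lay near or below the share of all probes.

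By gene, taking the brightest probe of each, 3 of the 9 members passed 1.5-fold upward in MF and 0 downward, against 19.8% higher and 21.1% lower of all 25538 genes compared. In MM vs CM, 1 of 9 was higher and 0 lower, against 17.7% and 23.1% of 26315 genes. The median log2 difference of the 9 genes was 0.28 in females, with 7 of 9 above 0, and 0.12 in males, with 5 of 9 above 0. Over all genes the medians were -0.08 and -0.03. When all probes of a gene were averaged, the medians of the 9 genes were 0.01 in females and 0.28 in males. The male median was -0.33 with normexp correction and quantile normalization, so its direction depends on the processing. With the deposited values unscaled, which moves the median of all genes to 0.32 in females and 0.53 in males, the members' median was 0.68 in both.

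**Figure D2:**
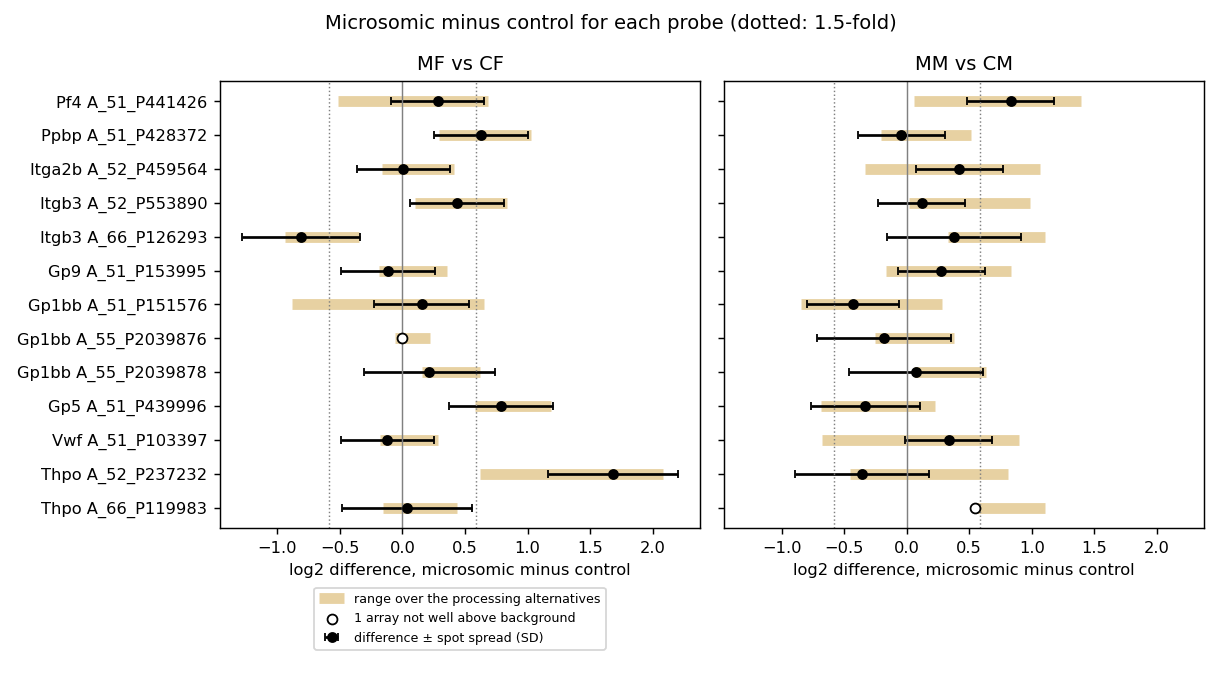
Log2 difference of microsomic minus control (x axis) for each of the 13 probes in females (left) and males (right), with bars of 1 spot SD, bands for the range over the processing alternatives, dotted lines at 1.5-fold and open points where 1 array was not well above background. Thpo A_52_P237232 in females, at 1.68, is the point farthest from 0, and most bands cross a dotted line or 0.

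No member probe was past 1.5-fold the same way in both genders (0 of 13), where 6.99% of the 32380 probes compared in both were, and by gene 6.98% of 23967. The probes past 1.5-fold in 1 gender were *Thpo* A_52_P237232, *Gp5*, *Ppbp* and *Itgb3* A_66_P126293 in females and *Pf4* in males. Of these, *Pf4* alone kept its sign in the other gender, while *Ppbp* was at -0.04 there. The difference between the genders was not tested, since each gender has 1 array of each kind. With the deposited values unscaled, 3 member probes (*Pf4*, *Itgb3* A_52_P553890 and *Gp1bb* A_55_P2039878) were over 1.5-fold higher in M in both genders, and with the position trend removed 1 (*Thpo* A_52_P237232) was. The shares of all probes past 1.5-fold the same way under these settings are not given here.

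**Figure D3:**
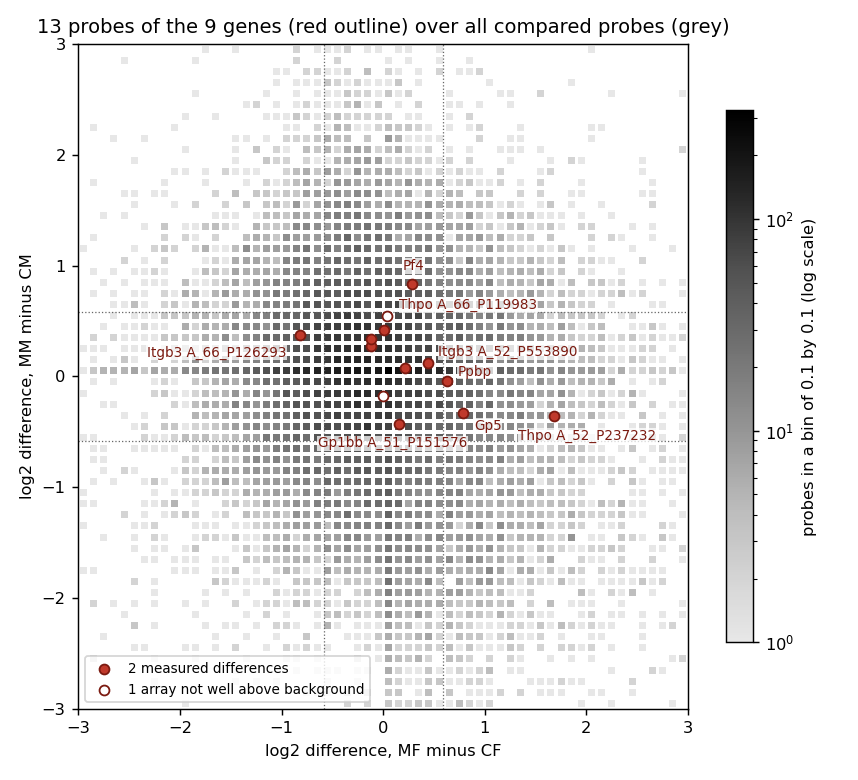
Log2 difference of MF minus CF (x axis) against MM minus CM (y axis) for the 13 member probes (points with red outline, open where 1 array was not well above background), over the number of all compared probes per bin of 0.1 by 0.1 (grey, log scale), with dotted lines at 1.5-fold. The member probes lie within the cloud of all probes and none lies in the upper right or lower left corner past both lines.

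The only fit with any spread to draw on was limma over all 4 arrays, with M or C and gender as terms and 1 residual degree of freedom. That spread is how far the female and the male M minus C differences lie apart, not a spread between animals or replicate arrays. The fit tests a change common to both genders, on the 25045 probes well above background on all 4 arrays, 11 of them member probes. No probe had a Benjamini-Hochberg adjusted p under 0.05 (0%, 0 probes, smallest adjusted p 0.655), and 1125 probes had an unadjusted p under 0.05 in limma. Among the member probes the smallest unadjusted p was that of *Pf4*, with a limma log2 difference of M minus C of 0.56 (SE 0.43, adjusted p = 0.998). *Thpo* A_52_P237232 followed with 0.66 (SE 0.55, adjusted p = 0.998 in limma). None of the 11 member probes had an unadjusted p under 0.05 in this fit (0 probes).

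Around the 9 members, 58 other megakaryocyte and platelet genes were examined in 5 lists, 57 of them on the array by the listed name. By their brightest probe, 8 of the 56 compared passed 1.5-fold upward and 5 downward in MF vs CF, with a median log2 difference of -0.07. In MM vs CM, 8 were higher and 7 lower, with a median of 0.05. These shares lie below the shares of all genes given above. Past 1.5-fold the same way in both genders were *Nfe2* and *Mylk*, higher in M, and *Itga2*, lower in M. These 2 higher and 1 lower are no larger a share than the 6.98% of all genes past 1.5-fold the same way.

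*Nfe2*, a transcription factor that megakaryocytes need to release platelets and that erythroid cells also express, had log2 levels of 4.41 in MF, 3.62 in CF, 3.54 in MM and 2.82 in CM. Its log2 difference was 0.79 in females and 0.72 in males. Among the 9 megakaryocyte transcription factors it was the only gene more than 1.5-fold higher in M in either gender, and *Runx1*, a factor of early blood formation and megakaryocyte maturation, had the largest mean fall, with -0.36 in females and -1.17 in males. *Fli1*, an ETS factor of the lineage, was 1.65-fold lower in MF than in CF. *Gata1*, which directs both the erythroid and the megakaryocyte lineage, differed by -0.31 and -0.11. The list medians were -0.27 in females and -0.02 in males, the latter 0.22 with normexp correction and quantile normalization. In each gender 1 of the 9 was over 1.5-fold higher and 1 lower, beside 19.8% and 21.1% of all genes in females and 17.7% and 23.1% in males.

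Thrombopoietin signalling was described by 7 genes, all well above background on all 4 arrays, with list medians of -0.28 in females and 0.32 in males. The female median was -0.60 with normexp correction and quantile normalization, and the male median 0.14 with probes of a gene averaged. Past 1.5-fold were 0 higher and 1 lower in MF vs CF, and 2 higher and 1 lower in MM vs CM. Over all genes, 19.8% were higher and 21.1% lower in females, and 17.7% and 23.1% in males. *Jak2*, a tyrosine kinase of cytokine signalling, differed by -0.30 in females and -1.29 in males. *Stat5b*, a transcription factor that Jak2 activates, differed by 0.24 in females and 1.39 in males, the largest mean rise of the list. *Asgr2*, a subunit of the hepatocyte receptor that takes up aged platelets, was higher in MM, 1.97-fold over CM. *Sh2b3*, an inhibitor of this signalling, was 1.62-fold lower in MF than in CF.

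Platelet receptors other than the members showed 0 of 12 genes higher and 2 lower in MF vs CF, and 1 higher and 3 lower in MM vs CM, with medians of -0.08 and 0.08. Over all genes the shares were 19.8% higher and 21.1% lower in MF vs CF, and 17.7% and 23.1% in MM vs CM. *Itga2*, the alpha chain of a collagen receptor, was 4.38-fold lower as measured in MF, where its probe was not well above background, than in CF. In MM it lay 2.25-fold under CM, and its log2 levels were -3.17 in CF, -4.72 in MM and -3.55 in CM. *P2ry1*, an ADP receptor, had the largest mean rise of the list, with differences of 0.01 and 0.48. *Cd226*, an adhesion receptor of platelets and lymphocytes, was lower in MF (1.82-fold under CF) but higher in MM (2.33-fold over CM).

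Granule proteins and genes of granule formation had 4 genes of 13 compared higher and 0 lower in MF vs CF (median 0.18), and 0 higher and 2 lower in MM vs CM (median -0.06), beside 19.8% higher and 21.1% lower of all genes in females and 17.7% and 23.1% in males. The 4 were *Nbeal2* (3.01-fold), which alpha granules need to form, *Thbs1* (2.51-fold), a matrix protein stored in them, *Pdgfa* (2.11-fold), a growth factor, and *Treml1* (1.57-fold), a granule membrane receptor. In males *Nbeal2* was at -0.52, *Pdgfa* at -0.56 and *Treml1* at -0.04, while *Thbs1* was at 0.43. *Srgn*, the granule proteoglycan serglycin, was lower in M, by -0.50 in females and -0.80 in males. *Mmrn1* was not well above background on any array and gave no difference. Averaged over the probes of a gene, the female median of this list was -0.07.

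Genes of platelet signalling and cytoskeleton had 3 of 15 higher and 1 lower in MF vs CF, and 4 higher and 0 lower in MM vs CM, with medians of 0.04 and 0.05, beside the same shares of all genes. *Mylk*, myosin light chain kinase, had log2 levels of -2.19 in MF, -3.16 in CF, -2.55 in MM and -3.46 in CM, and lay above C by 0.97 in females and 0.92 in males. *Tln1*, talin, which activates the fibrinogen receptor, was higher in MF, 1.87-fold over CF, with a male difference of 0.48. *Tbxas1*, thromboxane synthase, had the largest mean fall, with -0.63 and -0.21. *Tubb1*, the beta tubulin of platelets, differed by -0.21 and 0.11.

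**Figure D4:**
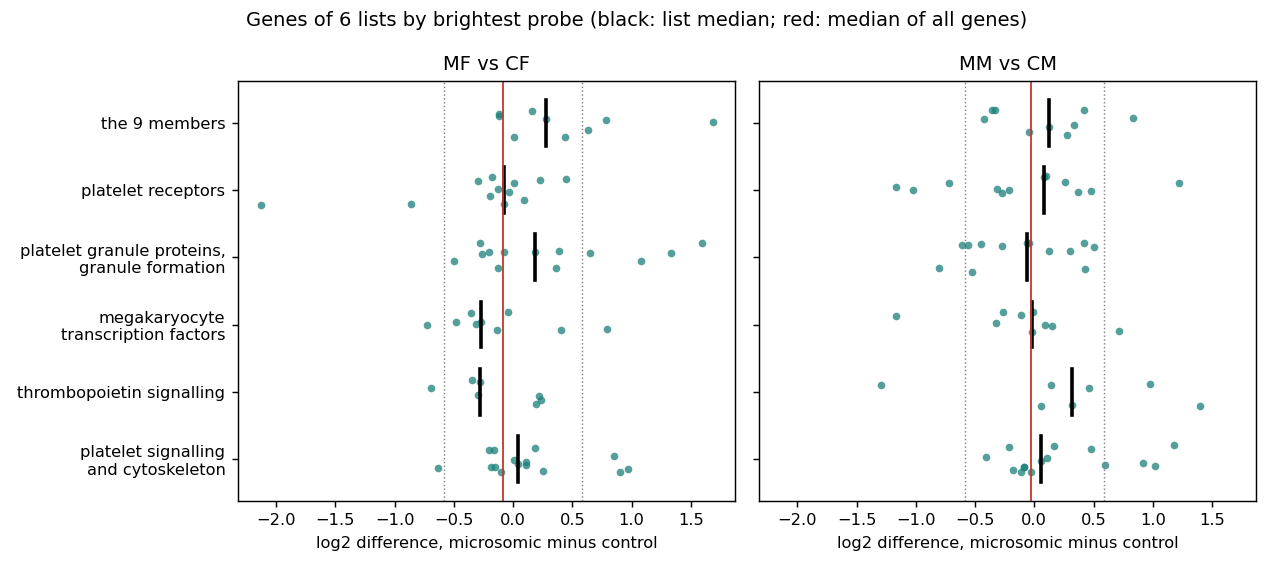
Log2 difference of microsomic minus control (x axis) for the genes of 6 lists, each gene 1 point by its brightest probe, in females (left) and males (right), with a black bar at the list median, a red line at the median of all genes and dotted lines at 1.5-fold. The 9 members have a median of 0.28 in females and 0.12 in males, and the points of each list spread to both sides of 0.

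Markers of the cell types that whole liver can hold were measured beside these genes. Of the markers on the array, all were well above background on all 4 arrays: 10 for megakaryocytes and platelets, 12 for endothelium, 10 for hepatocytes, 11 for erythroid cells, 9 for granulocytes, 9 for macrophages and 6 for progenitors and mast cells. None of the defining markers was at 0, and the hepatocyte markers, which define the labelled organ, had a summed signal of 4463 to 7087 times the 75th percentile of the array. The summed level of the megakaryocyte and platelet markers was 156 in MF, 125 in CF, 139 in MM and 104 in CM on the same linear scale. *Pf4* alone gave the largest part of each sum, with 106 in MF, 87.1 in CF, 79.6 in MM and 44.7 in CM. M lay above C in both genders by these sums, and the list shares genes with the members. In males the gap between the sums was nearly all that of *Pf4*, whose male difference was 0.06 with the position trend removed. The median log2 difference of the 10 markers was 0.19 in females, with 7 above 0, and 0.20 in males, with 6 above 0. The male median was -0.19 with normexp correction and quantile normalization.

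In females, granulocyte markers had a summed level of 1945 in MF and 956 in CF (7 of 9 over 1.5-fold higher, median 0.99). Macrophage markers summed to 265 and 120 (7 of 9, median 0.74). Of the 9 members by brightest probe, *Ppbp*, *Gp5* and *Thpo* were over 1.5-fold higher in MF, and the other genes were not. The second *Thpo* probe differed by 0.04. Erythroid markers summed to 2291 in MF and 3063 in CF, with 3 of 11 more than 1.5-fold lower and 2 higher in MF and a median of -0.51. The granulocyte median was 0.36 with quantile normalization. The part of these markers in the member differences was not tested. Hepatocyte markers summed to 7087 in MF and 6260 in CF, with a median of 0.21, and of -0.36 with quantile normalization. In males, the summed hepatocyte markers were lower in MM (4463 against 6838 in CM, 5 of 10 more than 1.5-fold lower and 1 higher, median -0.59). The male hepatocyte median was -0.08 with quantile normalization and -0.06 with normexp correction as well. Beside this, the male *Thpo* difference was -0.36 on A_52_P237232, and 0.81 there with the position trend removed. On A_66_P119983 it was 0.54, with CM not well above background. The part of the hepatocyte markers was not tested. Granulocyte markers summed to 987 in MM and 1286 in CM, with 0 of 9 over 1.5-fold higher, 2 lower and a median of 0.05. Macrophage markers summed to 132 and 125, with 2 of 9 higher, 2 lower and a median of 0.09. Male erythroid markers summed to 1705 in MM and 2649 in CM (median -0.26). Progenitor and mast cell markers had medians of -0.30 in females and 0.44 in males. The male *Pf4* difference was 0.83, and the part of these markers in it was not tested. Endothelial markers, which bear on *Vwf*, summed to 73.2 in MF, 87.2 in CF, 64.1 in MM and 66.7 in CM, with medians of -0.31 and -0.01. *Vwf* differed by -0.12 in females and 0.33 in males, both within the spot SD.

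For 7 of the 9 genes, a RefSeq table of GRCm38.p6 gave the bases before a transcript start, in 8 windows of 250 bases (2 for *Thpo*), and no window was given for *Itgb3* and *Vwf*. Genes of this lineage are known to be driven by GATA and ETS factors acting together, so both sets of letters were searched on both strands: AGATAA or TGATAA for GATA, and AGGAAG or CGGAAG for ETS. The ETS letters were in 6 of the 8 windows (*Pf4*, *Gp9*, *Itga2b*, *Gp1bb*, *Gp5* and 1 of *Thpo*) and in 39.2% of all 32851 promoters of the table. The GATA letters were in 1 of the 8 (*Gp5*) and in 16.6% of all, and both together in 1 of the 8 and in 5.49% of all. A match of letters is a description, sites spelled otherwise were not counted, and no binding was measured. The windows of *Pf4* (chr5:90772185-90772434, plus strand) and *Ppbp* (chr5:90768268-90768517, plus strand) are shown since these neighbours differed in which array was low, and that of *Gp5* (chr16:30310782-30311031, minus strand) since it holds both sets of letters. Each is read 5′ to 3′ and ends at the base before the start, with the matched letters of either strand in capitals.
Pf4: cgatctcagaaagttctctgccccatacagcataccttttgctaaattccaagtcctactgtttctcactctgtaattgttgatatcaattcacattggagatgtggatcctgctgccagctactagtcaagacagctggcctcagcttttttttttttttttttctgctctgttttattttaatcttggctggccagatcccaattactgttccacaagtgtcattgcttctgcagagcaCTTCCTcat
Ppbp: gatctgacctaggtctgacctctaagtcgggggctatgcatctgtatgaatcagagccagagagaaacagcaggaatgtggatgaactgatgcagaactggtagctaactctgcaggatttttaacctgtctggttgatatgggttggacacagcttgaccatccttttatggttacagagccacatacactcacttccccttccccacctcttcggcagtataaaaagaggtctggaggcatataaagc
Gp5: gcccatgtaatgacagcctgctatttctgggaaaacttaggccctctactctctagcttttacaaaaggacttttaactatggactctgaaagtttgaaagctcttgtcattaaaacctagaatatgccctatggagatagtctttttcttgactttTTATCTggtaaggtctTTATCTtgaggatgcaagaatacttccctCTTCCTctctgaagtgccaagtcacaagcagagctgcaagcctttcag

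In the *Pf4* window the ETS letters begin 9 bases before the start, on the opposite strand, and the *Ppbp* window holds neither set. In the *Gp5* window the GATA letters begin 93 and 77 bases and the ETS letters 48 bases before the start, all on the opposite strand. Of these 3 genes, *Pf4* passed 1.5-fold in males, and *Ppbp* and *Gp5* in females.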

How the data were processed

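Liver RNA of 4 groups (MF, CF, MM, CM) was read on 1 Agilent 1-colour array (Cy3) each, and the number of arrays limits the precision of every value. The scans were quantified by the authors in Agilent Feature Extraction (10.7.3.1, per the file headers). Its processed signal is a background-subtracted, detrended intensity on a linear scale, deposited without normalization between arrays. The deposited value table equals it in all 62976 spots. From these deposited intensities, log2 values were computed and the 75th percentile over each array's non-control spots was subtracted.

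A spot flagged as an outlier on 1 array or more (1754 spots) was not used. A difference needed 1 array of the pair at least on which the probe was well above background. Where the other array was not, the difference was taken against the lowest log2 signal well above background there (-6.03 in MF, -5.48 in CF, -5.83 in MM, -4.69 in CM) or the signal of the probe itself where higher. Taken against the probe's own signal, it is no bound. Where the array not well above background would come out higher, the difference was set to 0, as for *Gp1bb* A_55_P2039876 in females. Counts use 1.5-fold. limma (3.58.1 in R 4.3.3) was run over all 4 arrays, as 1 array per group allows no test of a pair. The step was tried on simulated data with the same spread for every probe and the same shift in both genders. Such a simulation cannot show how the fit behaves on these data. The alternatives were median centring, quantile normalization without and with normexp correction (offset 50), unscaled values, both arrays well above background, no filter on signal, flagged spots kept, position and GC trends removed, a 2-fold threshold, genes in place of probes, the mean over probes, and for limma an intensity trend, no gender term and the threshold of the methods.

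The text names all 9 members, and from each of the 5 lists the genes past 1.5-fold the same way in both genders and those with the largest mean rise and fall. *Fli1*, *Gata1*, *Asgr2*, *Sh2b3*, *Cd226*, *Nbeal2*, *Pdgfa*, *Treml1*, *Mmrn1*, *Tln1* and *Tubb1* were named after their values were seen. Of the listed genes, 1 is counted in its lists but its values are not reported here. Members and lists were chosen with earlier results of these data known. Probe names and positions come from the annotation in the files (mm9, NCBI37), and whether a probe lies in coding sequence was not analysed here.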

Additional observations from a re-analysis of the deposited data

How the results depend on the processing

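The count of member probes over 1.5-fold apart depended on the processing most in males. In MM vs CM it was 1 as reported, 4 with median centring of the arrays, 3 with quantile normalization, 5 with normexp correction and quantile normalization (2 higher and 3 lower in MM), 8 with the deposited values unscaled, 5 with the position trend removed, 3 with the GC trend removed and 0 with a 2-fold threshold. Of all probes, 41.2% were over 1.5-fold apart as reported, 45.4% with median centring, 43.8% with quantile normalization and 45.9% with normexp correction as well. The share was 57.4% with unscaled values, 52.0% with the position trend removed and 40.7% with the GC trend removed. In MF vs CF the member count was 4, and 6 with the deposited values unscaled (all higher in MF), 5 with the position trend removed (3 higher, 2 lower), 3 with quantile normalization, without and with normexp correction, and 1 with a 2-fold threshold. Of all probes, 41.4% were over 1.5-fold apart as reported, 44.9% with unscaled values and 45.9% with the position trend removed. With quantile normalization the share was 39.3%, and 28.9% with normexp correction as well. Member probes past 1.5-fold the same way in both genders numbered 0, and 3 with the deposited values unscaled and 1 with the position trend removed. As reported, 6.99% of all probes were past it the same way, and the shares under these alternatives are not given here. Limma called 0 member probes in every setting tried, with a smallest member adjusted p of 0.412 (unscaled values), while its calls among all probes were 13 with median centring, 36 with unscaled values and 24 with the position trend removed. Under the threshold of the methods 210 probes passed, 0 of them members. Of all calls past 1.5-fold in MM vs CM, 43.4% were higher in MM, against 60.5% with median centring and 77.6% unscaled, and in MF vs CF 46.1% against 54.5% and 77.8%. Of 182 recomputed member differences, 142 moved by less than the spot SD and 40 moved by more. The 142 include all differences with flagged spots kept, which could not move, since no member spot carried a flag. Of the differences past 1.5-fold as reported, 0 changed sign. Smaller differences were not counted for sign, and some did change it, such as *Vwf* in males (0.33, and -0.67 with normexp correction and quantile normalization). The cause of these changes was not tested. With 1 array per group no replicate could be left out, and the labels give no replicate numbers for a block. The gender term of the limma fit is the only pairing of M and C arrays. Signal over background limits the dim probes most, with *Thpo* A_66_P119983 and *Gp1bb* A_55_P2039876 each below it on 1 array.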
